A study of Mus musculus with 6 samples.

Results

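Purkinje cells and granule cells of the cerebellum were followed through 10 marker genes in RNA-seq of whole mouse brain. Pcp2, Car8, Ppp1r17, Slc1a6 and Calb1 stood for Purkinje cells, and Cbln1, Cbln3, Fat2, Zic1 and Zic2 for granule cells. They were found by matching gene symbols of the GENCODE M21 annotation to the Ensembl identifiers in the count files, which gave 10 of 60354 features. Male C57BL/6NCrSlc mice, 16 weeks old at the start, were fed for 16 weeks. The diet was a modified AIN-93M with 20% PLDP (PLDP mice, n = 3) or a modified AIN-93M with its total calories adjusted to match (control mice, n = 3). PLDP is the decomposition product of pig liver treated with protease. Both groups went through the same behavioral tests, during which PLDP was not given, before RNA was taken from the brain. The labels number the control mice 2, 5 and 10 and the PLDP mice 17, 22 and 26, and each mouse gave 1 library. All p-values therefore measure the spread between these mice.

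Purkinje cells are the large inhibitory neurons whose axons form the only output of the cerebellar cortex. Granule cells are small glutamatergic neurons that receive mossy fiber input and contact Purkinje cell dendrites through parallel fibers. The granule cell secretes Cbln1, which bridges the parallel fiber terminal and the Purkinje cell spine, and this bridge holds the synapse together. The markers differ in how closely they keep to the cerebellum: Calb1 is also made by neurons of the cortex, hippocampus and striatum, Cbln1 by some thalamic neurons, and Zic1 and Zic2 by cells of the olfactory bulb, septum and meninges.

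No difference between the diets beyond the spread between mice was found for either marker group. Of the 10 markers, 0 passed the unadjusted threshold of p under 0.05 in edgeR's quasi-likelihood test, against 8.60% of the 18580 features tested (4.91% higher and 3.69% lower in PLDP mice), and 0 of 10 is near that share. DESeq2 also gave 0 of 10, and limma voom gave 1, Zic2. With no filter on low counts edgeR gave 3 (Cbln1, Cbln3 and Zic2), beside 2360 of 36099 features. The values of the PLDP mice overlapped those of the control mice for all 10 markers, whereas the diets did not overlap for 14.2% of all features tested. The median log2 fold change, PLDP minus control, was -0.033 over the 5 Purkinje markers and 0.053 over the 5 granule cell markers, beside -0.00062 over all features tested. In whole brain, fewer cells of a type and less RNA per cell cannot be told apart.

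All 10 markers passed the filter on low counts, each with between 675 and 7348 reads in a mouse. The libraries held between 18797061 and 23938729 counts, and levels are given as CPM, the counts of a gene relative to the library total, scaled by TMM factors, which lay between 0.997 and 1.01. Of the 18580 features tested, 1598 passed unadjusted p under 0.05 and 6 passed a Benjamini-Hochberg adjusted p under 0.05.

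The sequences just upstream of markers of both cell types are shown for the binding motifs of factors known in each lineage. The basic helix-loop-helix factors of granule cells, such as Atoh1 and Neurod1, bind E-boxes (CANNTG), and the orphan receptor Rora, which Purkinje cells need to mature, binds half-sites with the core AGGTCA. RefSeq promoter windows (GRCm38.p6) were at hand for 5 of the 10 markers, namely Pcp2, Slc1a6, Cbln3, Fat2 and Zic1, in 8 windows of which 4 belong to Pcp2. Car8, Ppp1r17, Calb1, Cbln1 and Zic2 were not matched. Each upstream stretch is the longest exon-free run within the 250 bases upstream of the start. All sequences read 5′ to 3′ on the strand of the gene. The 30-base Pcp2 match lies between that gene's upstream stretch and its start, and was not limited to exon-free bases. Capitals mark an E-box, or AGGTCA in the 30-base Pcp2 match.
Pcp2 upstream stretch, chr8:3625607-3625778, minus strand: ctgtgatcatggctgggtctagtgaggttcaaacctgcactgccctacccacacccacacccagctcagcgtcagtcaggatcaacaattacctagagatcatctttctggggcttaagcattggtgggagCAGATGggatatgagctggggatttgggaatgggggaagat
Pcp2 AGGTCA match, chr8:3625548-3625577, minus strand: cttttaaaaggccttctcAGGTCAgagacc
Slc1a6 upstream stretch, chr10:78780246-78780495, plus strand: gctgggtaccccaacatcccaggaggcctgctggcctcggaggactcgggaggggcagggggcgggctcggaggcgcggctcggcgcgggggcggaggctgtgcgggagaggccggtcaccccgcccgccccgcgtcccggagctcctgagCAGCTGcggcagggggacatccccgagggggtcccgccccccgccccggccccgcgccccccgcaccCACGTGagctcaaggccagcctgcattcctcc
Cbln3 upstream stretch, chr14:55884393-55884506, minus strand: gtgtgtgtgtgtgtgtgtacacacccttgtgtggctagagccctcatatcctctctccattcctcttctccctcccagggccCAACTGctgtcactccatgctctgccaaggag
Zic1 upstream stretch, chr9:91365811-91366018, minus strand: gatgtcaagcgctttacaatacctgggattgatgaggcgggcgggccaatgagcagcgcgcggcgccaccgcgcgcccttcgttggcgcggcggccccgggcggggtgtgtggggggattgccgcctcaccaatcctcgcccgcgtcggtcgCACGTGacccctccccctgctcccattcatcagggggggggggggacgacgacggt

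An E-box was found in 8 of the 8 windows, searched over the 250 upstream bases on both strands, and in 66.2% of the 32851 windows of all genes. AGGTCA or its reverse complement was found in 4 of the 8, which were 3 of the 4 Pcp2 windows and the Fat2 window, and in 14.0% of all windows. The motifs can overlap at the letters CA, where AGGTCA ends and an E-box begins. The Pcp2 match lay 12 bases upstream of its start and the printed Zic1 E-box 98 bases upstream. A match describes these letters only.

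The 5 Purkinje markers were detected in every mouse, and positions are those of GENCODE M21 on GRCm38. Pcp2 (ENSMUSG00000004630, chr8:3623371-3625545), a regulator of G-protein signaling also called L7 and made almost only in Purkinje cells, was measured at 65.9, 60.2 and 66.2 CPM in control mice 2, 5 and 10 and at 72.9, 61.0 and 63.7 CPM in PLDP mice 17, 22 and 26. The highest mouse was PLDP 17 and the lowest control 5. The diets overlapped, since control 2 and control 10 lay above PLDP 22 and PLDP 26. Its log2 fold change was 0.039 ± 0.064 (SE, 95% interval -0.096 to 0.17, adjusted p = 0.914, edgeR). The exons of Pcp2 share 51.5% of their length with Pet100 on the opposite strand, and whether the counting used strand is not given in the sources used here, so reads of Pet100 may be part of this value.

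Car8 (ENSMUSG00000041261, chr4:8143362-8239041), a carbonic anhydrase relative without enzyme activity that binds the inositol trisphosphate receptor, was measured at 325, 264 and 334 CPM in control mice and at 336, 308 and 301 CPM in PLDP mice. Control 5 was lowest, and the other 5 mice lay within 301 to 336 CPM. The log2 fold change came to 0.034 ± 0.067 (SE, 95% interval -0.11 to 0.18, adjusted p = 0.934, edgeR).

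Ppp1r17 (ENSMUSG00000002930, chr6:56017497-56032689), the phosphatase inhibitor known as G-substrate, was measured at 43.5, 36.9 and 44.3 CPM in control mice and at 43.1, 38.3 and 36.1 CPM in PLDP mice. Each diet had mice near both ends of that range. Its log2 fold change of -0.084 ± 0.076 (SE, 95% interval -0.24 to 0.077, adjusted p = 0.809, edgeR) was the lowest of the 5 Purkinje markers. Without control 5 or without PLDP 17 it was -0.16 and passed the unadjusted threshold (unadjusted p = 0.0443 and unadjusted p = 0.0409, edgeR). Those fits called 1226 of 18888 and 2365 of 18848 features, against 1598 of 18580 in the main fit.

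Slc1a6 (ENSMUSG00000005357, chr10:78780496-78814765), the glutamate transporter EAAT4 of Purkinje cell spines, was measured at 44.5, 38.3 and 41.3 CPM in control mice and at 41.7, 38.1 and 40.5 CPM in PLDP mice. It varied least of the 10 markers, with a coefficient of variation of 5.80% over the 6 mice. A log2 fold change of -0.045 ± 0.064 (SE, 95% interval -0.18 to 0.089, adjusted p = 0.895, edgeR) was fitted.

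Calb1 (ENSMUSG00000028222, chr4:15881264-15908064), the calcium buffer calbindin, was measured at 311, 269 and 316 CPM in control mice and at 307, 292 and 277 CPM in PLDP mice. Control 5 was again the lowest mouse. A log2 fold change of -0.033 ± 0.055 (SE, 95% interval -0.15 to 0.083, adjusted p = 0.916, edgeR) was fitted. For the 5 Purkinje markers the 95% intervals together ran from a level 15.6% lower to one 13.0% higher in PLDP mice.

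**Figure D1:**
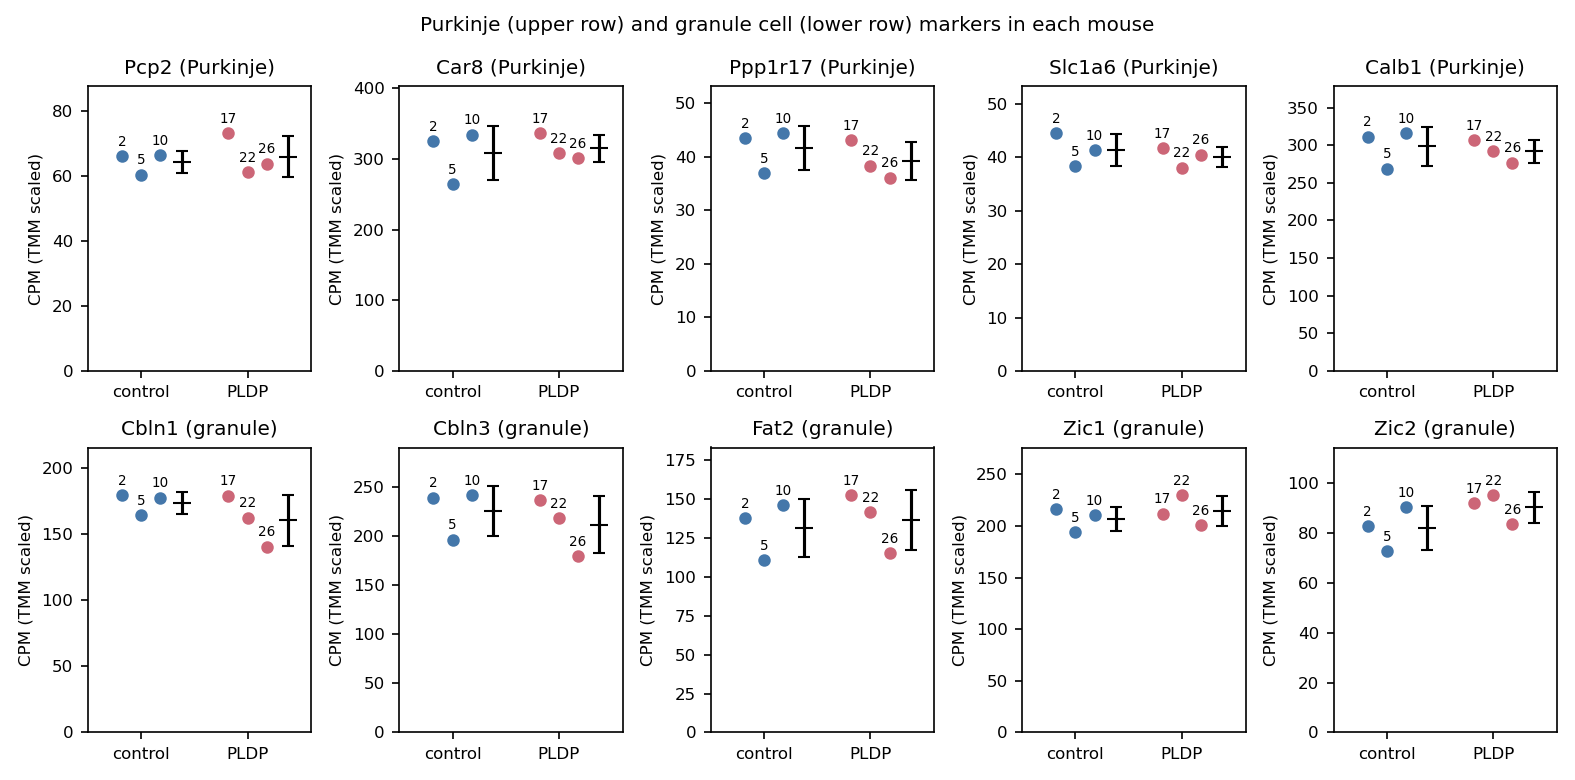
Level of each marker (y axis, TMM-scaled CPM from 0) in the 3 control mice and 3 PLDP mice (points, with mouse numbers), with the mean and SD of each diet as a black bar. The diets overlap in all 10 panels, and control 5 is the lowest mouse for Pcp2, Car8, Calb1, Fat2, Zic1 and Zic2.

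Among the granule cell markers, the log2 fold changes of the cerebellins were below 0 and those of Fat2 and the Zic factors above 0, and none passed the threshold. Cbln1 (ENSMUSG00000031654, chr8:87468405-87472609), the synaptic organizer described above, was measured at 180, 164 and 178 CPM in control mice and at 179, 162 and 140 CPM in PLDP mice. PLDP 17 lay within the control range, PLDP 22 just under it and PLDP 26 lowest. The log2 fold change was -0.11 ± 0.065 (SE, 95% interval -0.25 to 0.025, adjusted p = 0.654, edgeR), and it ranged from -0.20 without PLDP 17 to -0.027 without PLDP 26. Without PLDP 17 the unadjusted p was 0.00151 and the adjusted p = 0.0909 (edgeR), in a fit that called 2365 of 18848 features.

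Cbln3 (ENSMUSG00000040380, chr14:55878913-55884392), a granule cell cerebellin that is secreted only together with Cbln1, was measured at 240, 197 and 242 CPM in control mice and at 237, 218 and 180 CPM in PLDP mice. The lowest mouse of each diet, control 5 and PLDP 26, lay below the other 4. Its log2 fold change was -0.093 ± 0.082 (SE, 95% interval -0.27 to 0.081, adjusted p = 0.800, edgeR). It passed the unadjusted threshold at -0.19 without control 5 and at -0.18 without PLDP 17, and it was 0.0088 without PLDP 26. The fits without control 5 and without PLDP 17 called 1226 of 18888 and 2365 of 18848 features.

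Fat2 (ENSMUSG00000055333, chr11:55250609-55336564), a giant protocadherin on parallel fibers, varied most of the 10 markers. It was measured at 138, 111 and 146 CPM in control mice and at 153, 142 and 115 CPM in PLDP mice, a 1.38-fold range. Control 5 and PLDP 26 were the lowest mice here too. A log2 fold change of 0.056 ± 0.092 (SE, 95% interval -0.14 to 0.25, adjusted p = 0.913, edgeR) was fitted.

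Zic1 (ENSMUSG00000032368, chr9:91358058-91365810), a zinc finger transcription factor kept on in mature granule cells, was measured at 216, 194 and 210 CPM in control mice and at 212, 230 and 201 CPM in PLDP mice. PLDP 22 was the highest mouse and control 5 the lowest. The log2 fold change came to 0.053 ± 0.052 (SE, 95% interval -0.056 to 0.16, adjusted p = 0.828, edgeR). Its exons share 1.05% of their length with Zic4 on the opposite strand.

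Zic2 (ENSMUSG00000061524, chr14:122475435-122479852), a close relative of Zic1, came nearest to the threshold of the 10 markers. It was measured at 82.8, 72.7 and 90.4 CPM in control mice and at 92.1, 95.4 and 83.5 CPM in PLDP mice. PLDP 17 and PLDP 22 lay above all control mice, while PLDP 26 lay between them. The log2 fold change was 0.14 ± 0.068 (SE, 95% interval -0.00010 to 0.29, unadjusted p = 0.0501, adjusted p = 0.583, edgeR). It was 0.063 (unadjusted p = 0.344) without control 5 and 0.22 (unadjusted p = 0.00602) without control 10, and without PLDP 26 it was 0.19 (unadjusted p = 0.0141).

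**Figure D2:**
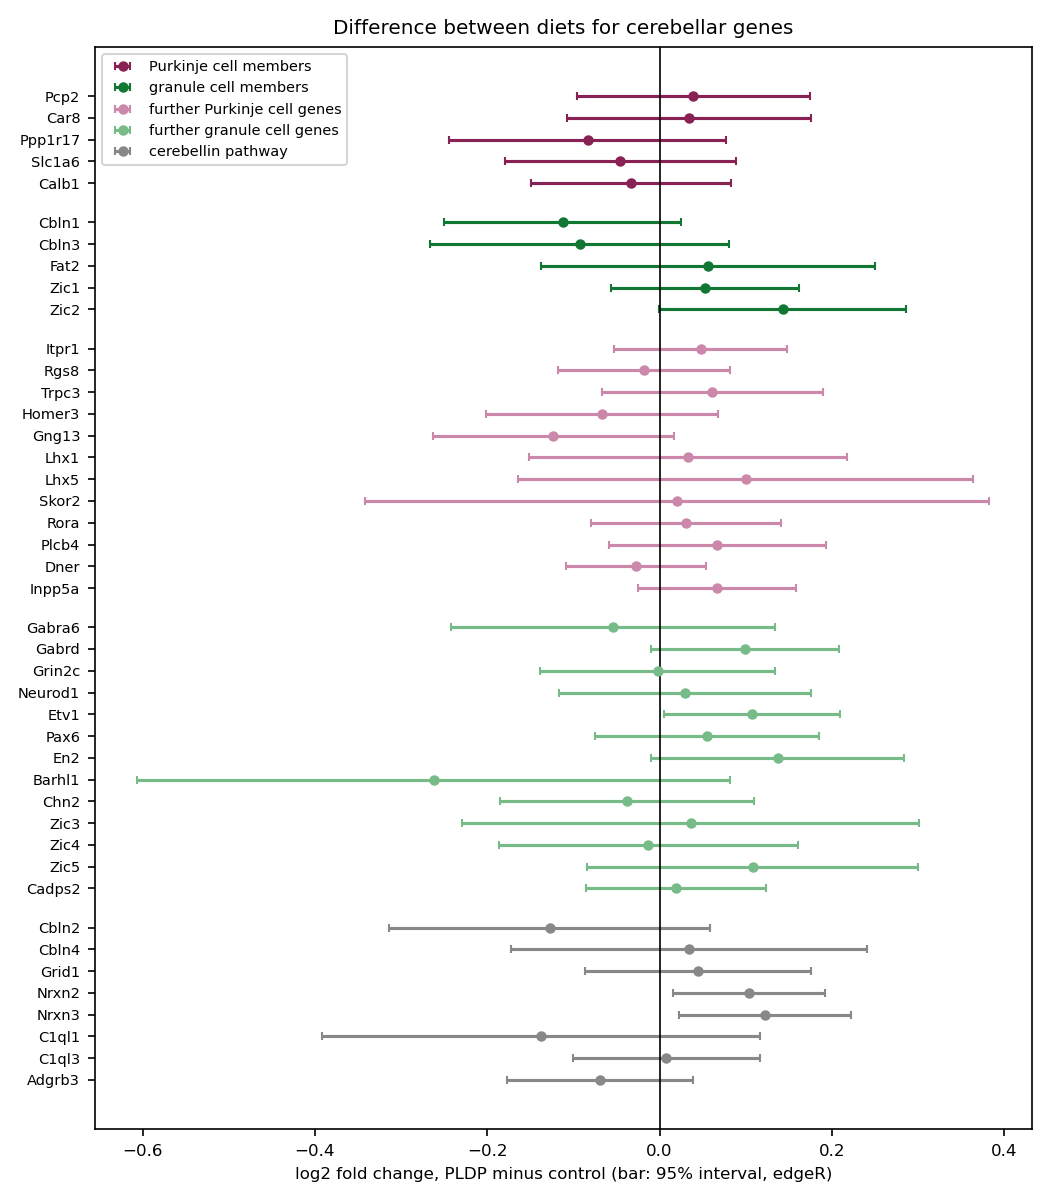
Log2 fold change between the diets (x axis, PLDP minus control, point) with its 95% interval from edgeR (bar) for the 10 markers, the further Purkinje and granule cell genes and the genes of the cerebellin pathway, with Pcp4 left out for its few counts and a few genes not shown. All 10 marker intervals include 0, and that of Zic2 ends at 0 on its lower side.

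Per kilobase of exon, the levels of the 10 markers over all 6 mice followed an order that mixed the 2 cell types. Car8 came first at 80.8 ± 7.05 CPM per kb (SD, n = 6) and its lowest mouse lay above every mouse of Calb1, which was at 60.9 ± 3.97. Cbln1 followed at 55.0 ± 5.00, Cbln3 at 45.0 ± 5.28, Zic1 at 37.0 ± 2.2, Pcp2 at 35.6 ± 2.52 and Zic2 at 29.9 ± 2.85 CPM per kb. From Calb1 to Zic2 each marker overlapped the next over mice. Ppp1r17 at 23.0 ± 2.10 and Slc1a6 at 18.9 ± 1.10 CPM per kb overlapped each other and lay below Zic2 in every mouse. Fat2, the longest of these transcripts, was lowest at 9.23 ± 1.18 CPM per kb and overlapped no other marker. The transcript forms that reads came from are not known, so the order rests on the full exon length of each gene.

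Purkinje and granule cell markers were then set against each other within each mouse. The 5 Purkinje markers summed to 790, 668 and 802 CPM in control mice 2, 5 and 10 and to 800, 737 and 718 CPM in PLDP mice 17, 22 and 26. The 5 granule cell markers summed to 856, 738 and 867 CPM in control mice and to 873, 848 and 720 CPM in PLDP mice. The mean of each sum was nearly equal between the diets, at 753 ± 73.8 against 752 ± 43.2 CPM for Purkinje markers and at 820 ± 71.3 against 814 ± 81.9 CPM for granule cell markers (SD, n = 3 mice each, control first). Control 5 was low for both cell types and PLDP 17 high for both.

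The Purkinje to granule ratio was 0.923, 0.905 and 0.925 in the control mice. In the PLDP mice it was 0.917, 0.870 and 0.997, and so enclosed all control values. PLDP 22 had the lowest ratio, with a Purkinje sum below 3 other mice and a granule sum between those of the control mice. PLDP 26 had the highest ratio, with the lowest granule sum of the 6 mice. The mean ratio was 0.918 ± 0.0108 in control mice and 0.928 ± 0.0642 in PLDP mice (SD, n = 3).

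**Figure D3:**
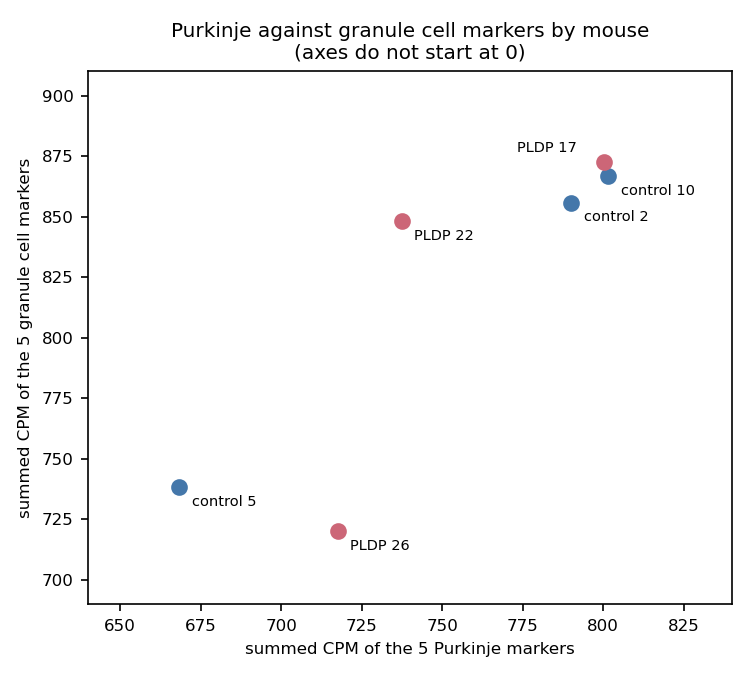
Summed CPM of the 5 Purkinje markers (x axis) against summed CPM of the 5 granule cell markers (y axis), 1 point per mouse, control mice in blue and PLDP mice in red. Control 2, control 10 and PLDP 17 lie together at the upper right, control 5 at the lower left, and PLDP 22 lies above and PLDP 26 below the line between control 5 and control 10.

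These sums differed more between mice of 1 diet than between the means of the diets. In control 5 the mean log2 level of the Purkinje markers was 9.02% under the mean of the 6 mice, and that of the granule cell markers 10.4% under it. Control 5 was the lowest mouse for 3 of 5 Purkinje and 3 of 5 granule cell markers, and for 9 of 16 further Purkinje and 6 of 13 further granule cell genes, against 16.0% of all features tested. In PLDP 26 the granule cell markers were 10.9% and the Purkinje markers 4.40% under their means. PLDP 26 was the lowest mouse for 2 of 5 granule cell markers and 5 of 13 further granule cell genes, against 16.3% of all features. Of the lists of other brain parts, some were also under their means in these mice and some above. In control 5 the lists of the meninges (-5.45%), the olfactory bulb (-3.31%) and the cortex and hippocampus (-2.00%) were under their means, and those of the hindbrain (28.7%), the choroid plexus (8.48%), the striatum (6.15%) and the thalamus (2.30%) above. In PLDP 26 the lists of the hindbrain (-28.2%), the meninges (-4.07%), the choroid plexus (-3.16%) and the striatum (-1.41%) were under their means, and those of the thalamus (7.43%), the cortex and hippocampus (5.86%) and the olfactory bulb (1.46%) above. The share of cerebellum in each brain sample was not measured.

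The spread between mice exceeded counting error for all 10 markers. It ranged from 5.80% for Slc1a6 to 12.8% for Fat2 over the 6 mice, where counting error alone gives 3.63% and 2.15%.

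The labelled tissue was checked against further genes of both cell types, of which all 16 for Purkinje and all 13 for granule cells passed the filter. Of the Purkinje list 1 gene was higher and 0 lower in PLDP mice at the unadjusted threshold, beside 4.91% and 3.69% of all features. The list's median log2 fold change was 0.032. Without PLDP 17 the list held 1 higher and 2 lower, in a fit that called 2365 of 18848 features. The 3 with the highest mean CPM, not corrected for length, were Itpr1, the inositol trisphosphate receptor of the endoplasmic reticulum, at 889 ± 74.2 CPM in control and 919 ± 17.9 CPM in PLDP mice, Rgs8, a brake on G-protein signaling, at 334 ± 18.4 and 330 ± 17.3 CPM, and Dner, a Notch ligand of dendrites, at 248 ± 6.45 and 243 ± 3.52 CPM (SD, n = 3). None of the 3 passed the threshold. Pcp4, a calmodulin-binding protein abundant in Purkinje cells, was counted at only 7 to 20 reads in a mouse, a mean of 0.521 CPM in control and 0.630 CPM in PLDP mice, and 23.7% of its exon length is shared with Igsf5 on the same strand.

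Of the further granule cell genes 1 was higher and 0 lower, beside 4.91% and 3.69% of all features, with a median log2 fold change of 0.029. The gene was Etv1, a transcription factor of maturing granule cells that neurons of the cortex also make. It was measured at 127, 118 and 133 CPM in control and at 132, 138 and 136 CPM in PLDP mice, with control 10 above PLDP 17. Its log2 fold change was 0.11 ± 0.048 (SE, unadjusted p = 0.0397, adjusted p = 0.553, edgeR), and it missed the unadjusted threshold in 4 of the 6 fits with 1 mouse left out, those without control 2, control 5, PLDP 22 or PLDP 26. Without control 5 the list held 0 genes higher and 3 lower, and without PLDP 22 or control 2, or with DESeq2, it held 0 in each direction. It held 2 higher without control 10 or PLDP 26, and 1 lower beside 1 higher without PLDP 17. Chn2, a Rac regulator, was at 175 ± 20.6 and 170 ± 13.2 CPM, and Grin2c, the glutamate receptor subunit that mature granule cells gain, at 156 ± 11.0 and 155 ± 16.2 CPM in control and PLDP mice (SD, n = 3).

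The genes of the cerebellin bridge gave 2 higher and 0 lower of 11, beside 4.91% and 3.69% of all features tested. Both were neurexins, the presynaptic partners of Cbln1, which nearly all neurons make. Nrxn2 was measured at 431, 406 and 417 CPM in control mice and at 424, 466 and 457 CPM in PLDP mice, a log2 fold change of 0.10 ± 0.042 (SE, unadjusted p = 0.0239, adjusted p = 0.493, edgeR). Nrxn3 was measured at 206, 213 and 204 CPM in control mice and at 209, 231 and 239 CPM in PLDP mice, a log2 fold change of 0.12 ± 0.047 (SE, unadjusted p = 0.0191, adjusted p = 0.461, edgeR). For both genes PLDP 17 lay within the control range and the other 2 PLDP mice above it. Nrxn2 missed the unadjusted threshold without control 5, control 10, PLDP 22 or PLDP 26, and Nrxn3 without control 2, control 10, PLDP 22 or PLDP 26. Without PLDP 17 the log2 fold changes were 0.14 (adjusted p = 0.0468, edgeR) for Nrxn2 and 0.18 (adjusted p = 0.0218, edgeR) for Nrxn3, and over the 13 alternatives the adjusted p reached 0.875 and 0.856. The fit without PLDP 17 called 2365 of 18848 features, and 182 passed the adjusted threshold, against 6 in the main fit. The median log2 fold change of the 11 genes was 0.027. With 1 mouse left out the list held 0 to 3 genes higher and 0 to 1 lower, the most without PLDP 17.

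In the main fit each list of the other cerebellar cortex cell types held 0 or 1 call, beside 8.60% of all features tested. The interneuron list had 0 higher and 1 lower of 6, Pax2, an early interneuron factor, at 5.17 ± 0.644 in control and 4.04 ± 0.607 CPM in PLDP mice (log2 fold change -0.35, adjusted p = 0.524, edgeR). The Bergmann glia list had 0 called of 4 by edgeR at the unadjusted threshold, as by DESeq2 and limma voom, with a median of -0.025, and 1 lower without PLDP 17. The unipolar brush cell list had 1 higher of 4, Eomes, at 17.9 ± 1.82 and 20.8 ± 2.76 CPM (log2 fold change 0.22, adjusted p = 0.559, edgeR). Pax2 missed the unadjusted threshold without control 2, control 10, PLDP 22 or PLDP 26, Eomes without control 5 or PLDP 22, and both with DESeq2. Without control 10 the interneuron list held 1 higher and 0 lower.

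Hindbrain genes were lower in PLDP mice in the same libraries. Of 11 hindbrain and spinal cord genes, 10 passed the filter. Of these 0 were higher and 8 lower at the unadjusted threshold, beside 4.91% and 3.69% of all features. Their median log2 fold change was -0.78, and it was -1.21 without PLDP 17 and -0.51 without PLDP 22. Their summed level was 153 to 168 CPM in control mice and 84.1 to 123 CPM in PLDP mice. Slc6a5, the glycine transporter of glycinergic neurons, which include Golgi cells of the cerebellum, fell from 45.2 ± 3.78 to 28.7 ± 5.50 CPM (log2 fold change -0.66, adjusted p = 0.0369, edgeR, and an adjusted p of up to 0.223 over the alternatives), and Glra1, a glycine receptor subunit, was at 87.0 ± 2.30 and 61.8 ± 10.7 CPM (log2 fold change -0.50, adjusted p = 0.0592, edgeR). For Glra1 the adjusted p ran from 1.71e-16 with no filter on low counts to 0.299 over the alternatives, and it was under 0.05 without PLDP 17, PLDP 22 or PLDP 26. An adjusted p under 0.05 was reached by 180 features with no filter and by 182 without PLDP 17, against 6 in the main fit. The number of lower genes was 5 without control 2 and 5 without PLDP 22. The hindbrain list was lowest in PLDP 22, where the granule cell markers summed to 848 CPM, and its part in the marker values was not tested.

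**Figure D4:**
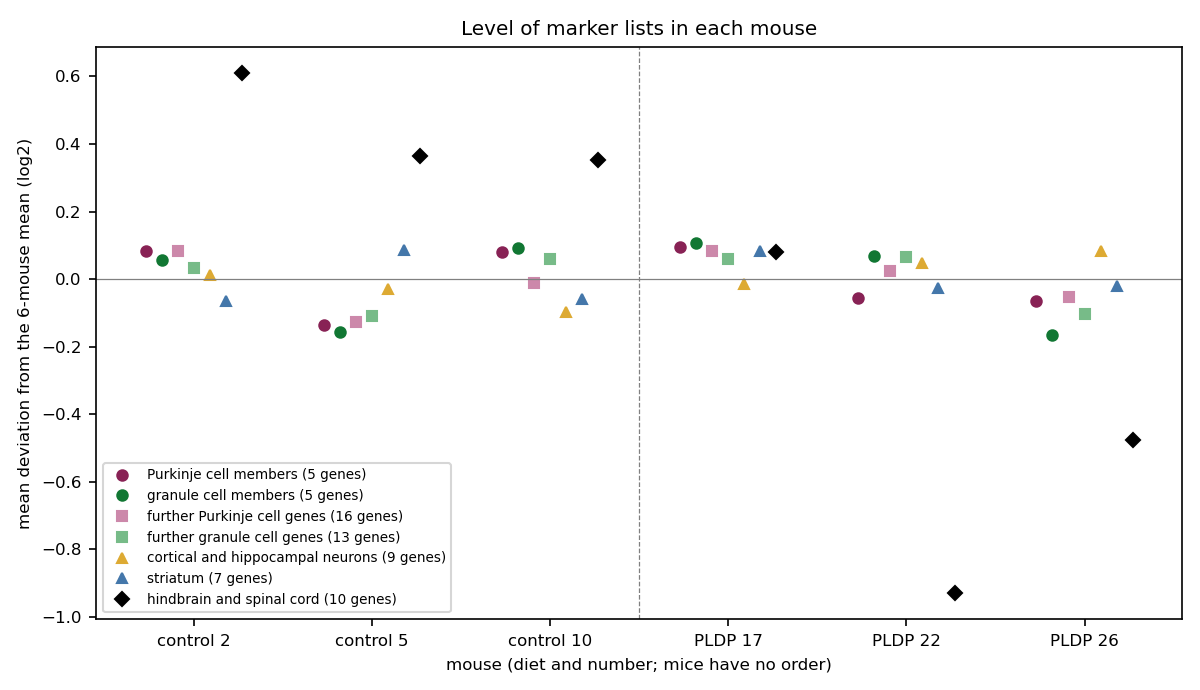
Mean deviation of each gene list from its mean over the 6 mice (y axis, log2) in each mouse (x axis), 1 symbol per list. The 4 Purkinje and granule cell lists lie within 0.17 of 0 in every mouse and are lowest in control 5 and PLDP 26, while the hindbrain list runs from 0.61 in control 2 to -0.93 in PLDP 22.

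Of the 5 lists of places where Calb1, Cbln1 and the Zic genes are also made, 3 had calls. Over all features tested, 4.91% were called higher and 3.69% lower. The cortical and hippocampal list had 2 higher of 9, Fezf2 (log2 fold change 0.22, adjusted p = 0.436) and Cux2 (log2 fold change 0.14, adjusted p = 0.448, both edgeR), with a median of 0.070. The striatal list had 0 of 7 and the thalamic list 0 of 6 at the unadjusted threshold of edgeR, as by DESeq2 and limma voom, with medians of 0.0067 and 0.035. The thalamic list had 2 higher and 1 lower without PLDP 17, 1 lower without PLDP 26 and 1 in each direction with no filter on low counts, while the striatal list had 0 in all 13 alternatives. The olfactory bulb list had 1 higher of 6, again Eomes, with a median of -0.069, and the list of the meninges 1 lower of 9, Ogn (log2 fold change -0.20, adjusted p = 0.565, edgeR), with a median of -0.027. The choroid plexus list had 2 lower of 6, Ttr (log2 fold change -0.22, adjusted p = 0.260) and Folr1 (log2 fold change -0.31, adjusted p = 0.572, both edgeR), with a median of -0.16. It had 4 lower with a median of -0.32 without PLDP 22 and 1 lower with a median of -0.043 without PLDP 17, and 1 lower without control 2 or control 5. The list of the meninges had 3 lower without control 5 and 0 without control 2, control 10 or PLDP 22, and that of the olfactory bulb 2 lower without PLDP 22. Fezf2 missed the unadjusted threshold without PLDP 22, Cux2 without control 10, PLDP 22 or PLDP 26, Ogn without control 2, control 10, PLDP 22 or PLDP 26, and Folr1 without control 2, control 5 or PLDP 17. Ogn also missed it with upper-quartile factors, and both Ogn and Folr1 missed it with DESeq2 and limma voom, where the choroid plexus list had 1 lower. Ttr passed the adjusted threshold with no filter on low counts (adjusted p = 5.97e-06, edgeR) and in no other alternative. With no filter 180 of 36099 features passed it, against 6 of 18580 in the main fit.

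The genes whose levels most resembled the markers over the 6 mice were picked by Pearson's r with the mean log2 level of each marker group, among 17892 other genes. For the Purkinje markers they were Atp2a3 (r = 0.9998), a calcium pump of the endoplasmic reticulum that Purkinje cells make, Rbm38 (r = 0.998) and Arhgef18 (r = 0.990). Atp2a3 was measured at 59.9, 49.7 and 60.0 CPM in control mice and at 60.7, 53.4 and 53.0 CPM in PLDP mice. For the granule cell markers they were 1110038F14Rik (r = 0.995), Gatad2a (r = 0.991) and AC121886.1 (r = 0.986). These are the highest of many values over 6 mice and describe these libraries only.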

How the data were processed

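RNA-seq libraries of polyadenylated RNA (stranded kit, paired reads) came from 3 control and 3 PLDP mice. The authors deposited 1 file of raw read counts per gene and mouse, without normalization. The submitters' processing notes name cutadapt 2.9, HISAT2 2.2.0, featureCounts 2.6.0 and DESeq2 1.6.3 and the builds GRCh38 and GRCm38, with no role for either. The strand setting of the counting and its annotation are not given in the sources used here, so overlapping genes are uncertain. Symbols came from GENCODE M21, which matched 54777 of 60354 features, and no column of per-sample values was left unused.

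Counts were filtered with filterByExpr (minimum count 10, total 15), scaled by TMM and fitted in edgeR 4.0.16 (R 4.3.3) by the quasi-likelihood test with diet as the only term, with an unadjusted threshold of 0.05 and Benjamini-Hochberg adjustment over all features tested. Standard errors and 95% intervals came from the same fit, which was checked on simulated counts. Alternatives were 2 other filters, 3 other scalings, DESeq2 1.42.0, limma voom 3.58.1 and each mouse left out. Those for named genes of other lists were chosen after seeing the data. Levels per kilobase used the merged exon length. A difference between diets has n = 3 mice each, and the counting error of each marker was computed from its lowest count in a mouse.

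Named genes were the 10 markers, every gene of the further Purkinje, further granule cell and cerebellin lists with unadjusted p under 0.05 and the 3 most abundant of each, up to 2 such genes of each other list by smallest p, and the 3 genes most like each marker group. Pcp4 was named after its values were seen. A few genes of these lists are not reported here. The markers and lists were chosen with earlier results of these data known. Promoter sequences came from RefSeq (GRCm38.p6).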

Additional observations from a re-analysis of the deposited data

How the results depend on the processing

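No paired analysis was possible because the diets share no mouse numbers. Over 13 alternatives for 10 markers (130 values), 107 kept direction and side of the unadjusted threshold, 12 newly passed it and 11 changed sign, each of these with 1 mouse left out. The lowest adjusted p was 0.0909 and the largest log2 fold change 0.22 in size. The number of granule cell markers called was 3 with no filter on low counts (Cbln1, Cbln3 and Zic2, beside 2360 of 36099 features), 1 with upper-quartile factors and 1 with limma voom (Zic2 in both), against 0. With 1 mouse left out it was 0 to 2, and the number of Purkinje markers called 0 to 1. All features called were 1598, 926 with DESeq2 and 1133 to 2365 with 1 mouse left out. The 2365 came without PLDP 17, of 18848 features tested, and 182 of them passed the adjusted threshold, against 6 in the main fit. With 1 mouse left out, the log2 fold change ranged from -0.041 to 0.092 for Pcp2, -0.066 to 0.096 for Car8, -0.098 to 0.0081 for Slc1a6, -0.10 to 0.0076 for Calb1, -0.19 to 0.0088 for Cbln3, -0.055 to 0.16 for Fat2 and -0.0038 to 0.095 for Zic1. The group medians ranged from -0.098 to 0.0081 (Purkinje) and -0.055 to 0.095 (granule). The cause of these changes was not tested. Depth was no limit for the markers, since 675 reads or more stood behind each value, but 3 mice per diet leave differences of the size of the intervals undetectable.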

Other observations

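The summed level of Cbln1 and Cbln3 over that of Zic1 and Zic2 was 1.40, 1.35 and 1.40 in control mice 2, 5 and 10, and 1.37, 1.17 and 1.13 in PLDP mice 17, 22 and 26. PLDP 17 lay within the control range and the other 2 PLDP mice below it. The mean ratio was 1.38 ± 0.0271 in control and 1.22 ± 0.128 in PLDP mice (SD, n = 3). This ratio was chosen after its values were seen and carries no test. Within each pair, the ratio of Cbln1 to Cbln3 was 0.773 ± 0.0546 in control and 0.759 ± 0.0183 in PLDP mice, and that of Zic2 to Zic1 0.396 ± 0.0297 and 0.422 ± 0.0114 (SD, n = 3).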
